A study of Homo sapiens with 6 samples.

Results

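The genes described here are 10 genes of the integrated stress response and the unfolded protein response: ATF4, ATF3, DDIT3, XBP1, ASNS, PSAT1, CHAC1, TRIB3, SESN2 and HSPA5. They were taken by gene symbol from the deposited gene table, and all 10 were found among its 20061 rows and among the 11952 rows that the authors had tested. RNA came from HEYA8, an established human ovarian cancer line that stably expressed a lentiviral short hairpin RNA (shRNA) and was grown in puromycin at 5 µg/ml. In the control group (shLuciferase, 3 samples) the hairpin was directed at luciferase, a reporter enzyme that human cells lack, and in the other group (shETS1, 3 samples) at the transcription factor ETS1. Polyadenylated RNA was sequenced, and each group is represented by 1 FPKM value per gene that the authors computed over its samples (fragments scaled to transcript length and to sequencing depth). The labels name no further treatment, do not give the number of hairpins or clones used, and leave unsaid if the 3 samples were separate cultures.

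The unfolded protein response is the reaction of a cell to misfolded protein in the endoplasmic reticulum (ER). It has 3 sensors in the ER membrane. PERK phosphorylates the translation factor eIF2alpha, which lowers protein synthesis in general but favours translation of ATF4. IRE1 removes a short intron from XBP1 mRNA so that an active transcription factor is made, and ATF6 is cut by proteases in the Golgi and moves to the nucleus. Other eIF2alpha kinases respond to amino acid shortage, haem shortage or double-stranded RNA, and they reach the same ATF4 programme. Because ATF4 is controlled mainly at translation and XBP1 by splicing, FPKM values per gene report the amount of their mRNA and not the activity of either factor.

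Short stretches of promoter are shown first, because DNA elements in them define the arms of the response to which several of the 10 genes belong. They come from RefSeq (build GRCh38.p14, whereas the expression table uses hg19) and cover 250 bases before to 50 bases after an annotated transcript start. All 10 genes had an entry, with 17 windows in all. Each stretch is given in the direction of its gene, with the match in capitals and 25 bases on either side. The ER stress element consists of the boxes CCAAT and CCACG with 9 bases between them and is the classic element of chaperone genes that ATF6 and XBP1 act on. It was found in 2 of the 10 genes, HSPA5 and XBP1 itself, starting 66 and 52 bases before the start.
HSPA5 (chr9:125241366-125241434, minus strand): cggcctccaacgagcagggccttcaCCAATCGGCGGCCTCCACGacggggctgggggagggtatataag
XBP1 (chr22:28800578-28800646, minus strand): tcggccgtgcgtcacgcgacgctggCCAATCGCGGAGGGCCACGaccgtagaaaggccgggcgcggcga

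The composite element read by ATF4 with its C/EBP partners was searched as TGATGNAA on both strands. It was found in windows of 3 of the 10 genes: ASNS, CHAC1 and ATF3. In ASNS it starts 68 bases before the start. In CHAC1 it lies on the opposite strand, so that the printed letters are its reverse complement, and the match begins 209 bases before the start. The ATF3 match lies in the more upstream of 2 windows of that gene.
ASNS (chr7:97872444-97872501, minus strand): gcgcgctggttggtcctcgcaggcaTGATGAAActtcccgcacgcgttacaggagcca
CHAC1 (chr15:40953237-40953294, plus strand): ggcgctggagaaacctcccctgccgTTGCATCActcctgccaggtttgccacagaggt
ATF3 (chr1:212565191-212565248, plus strand): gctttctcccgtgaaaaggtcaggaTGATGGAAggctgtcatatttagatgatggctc

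The letters CCGGAAGT, a form of the site bound by ETS factors, were searched because ETS1 was the gene lowered here. On either strand they were found in 1 of the 10 genes, DDIT3, again as the reverse complement and in both overlapping windows of that gene.
DDIT3 (chr12:57520681-57520738, minus strand): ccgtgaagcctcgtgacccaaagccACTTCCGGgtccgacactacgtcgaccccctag

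Of all 27305 genes with a window, 0.0916% held the ER stress element in at least 1, 4.46% the composite element and 4.95% the ETS letters. Per window of the same length (35116 in all) the shares were 0.0769%, 3.62% and 4.14%. The cAMP response element TGACGTCA, which other factors of the CREB and ATF family bind, was in 2.25% of genes and 1.85% of windows, and in none of those of the 10 genes. The windows of ATF4, PSAT1, TRIB3 and SESN2 held none of the 4 patterns, which says only that these letters are not in these windows.

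The targeted gene stood at 41.4 FPKM in shLuciferase against 17.9 FPKM in shETS1, a level 43.1% of the control, with a q-value of 0.00964 by the authors' deposited table. Of the epithelial and ovarian lineage markers, KRT8 stood at 1913 and 1288 FPKM, KRT18 at 2044 and 1498 FPKM and the lineage factor PAX8 at 79.7 and 76.8 FPKM. EPCAM (1.71 and 1.82 FPKM), KRT19 (3.55 and 3.80 FPKM) and WT1 (3.58 and 3.13 FPKM) were low. KRT8 and KRT18 have 1 merged locus, and that of KRT19 holds other keratin genes, so the values of these keratins are uncertain. The adhesion gene CDH1 and the ovarian cancer antigen gene MUC16 were below 0.01 FPKM in the control and listed at 0 in shETS1. The leukocyte genes PTPRC, TYROBP and CD3E and the fibroblast genes COL3A1 and DCN were listed at 0 in both groups. The fibroblast gene LUM was at 0.0123 and 0.0178 FPKM, and the endothelial genes CLDN5 and KDR were at 0.295 and 0.271 FPKM and at 0.0710 and 0.108 FPKM. Sequencing depth is unknown from FPKM values, and no spread between samples can be computed, so every p-value below is the authors'.

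None of the 10 genes passed the authors' test at a q-value of at most 0.05, a threshold that 0.812% of all tested genes passed (0.544% higher and 0.268% lower in shETS1). The count was also 0 at a q-value of at most 0.1, which 1.26% of tested genes passed. At an unadjusted p under 0.05, 3 of the 10 were picked out, against 6.94% of all tested genes. ASNS was higher in shETS1, where 3.9% of tested genes met that mark, and TRIB3 and SESN2 were lower, where 3.04% did. The median log2 ratio of shETS1 over shLuciferase over the 10 genes was 0.23, and 7 of the 10 were above 0. The 10676 tested genes whose mean reached 1 FPKM had a median of 0.02, and 52.5% were above 0. The 10 genes were chosen with earlier results of these data known, so these figures are a description only. In RNA from whole cultures, fewer expressing cells and less RNA per cell cannot be told apart.

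**Figure D1:**
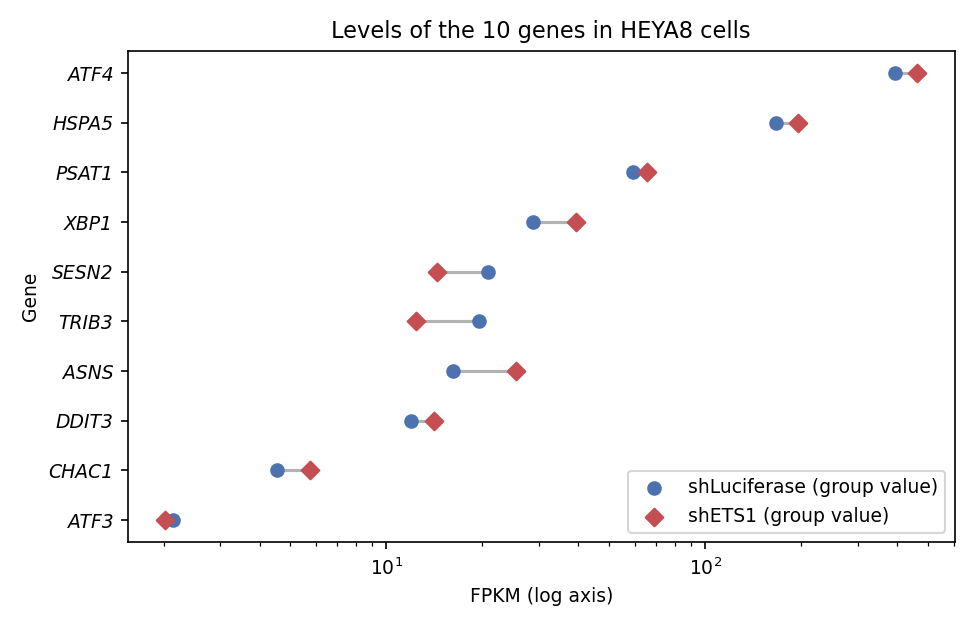
FPKM (horizontal log axis) of each of the 10 genes in shLuciferase (blue circles) and shETS1 (red diamonds), 1 group value each with no error bar because no value per sample was given. ATF4 lies highest at 393 and 461 FPKM and ATF3 lowest at 2.15 and 2.03 FPKM, and the order of SESN2, TRIB3, ASNS and DDIT3 differs between the groups.

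The 10 genes covered a wide range of levels, and FPKM values, being scaled to length, can be set side by side. ATF4 mRNA was the most abundant and exceeded 97.9% of tested genes in the control. It stood at 183 times the level of ATF3 in shLuciferase and 228 times in shETS1. After ATF4, the order in the control was HSPA5, PSAT1, XBP1, SESN2, TRIB3, ASNS, DDIT3, CHAC1 and ATF3. In shETS1 the first 4 places and the last 2 were held by the same genes, while ASNS moved from place 7 to place 5 and TRIB3 from place 6 to place 8. Whether neighbours in this order differ beyond the spread of samples cannot be computed from group values.

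Among the transcription factors, ATF4 (hg19 locus chr22:39916569-39918691) is the effector of eIF2alpha phosphorylation. Its mRNA stood at 393 FPKM in shLuciferase against 461 FPKM in shETS1. The log2 ratio was 0.23, with a p-value of 0.359 and a q-value of 1.00 by the authors' deposited table, and 40.2% of expressed genes had a larger change in either direction.

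DDIT3 (chr12:57853918-57914300) encodes CHOP, a transcription factor induced by ATF4 that promotes cell death under lasting stress. It was at 12.0 FPKM in the control against 14.1 FPKM in shETS1. Its log2 ratio of 0.23 equals those of ATF4 and HSPA5 to the digits given, but its p-value in the authors' deposited table was 0.852. The deposited locus of DDIT3 is a merged one that also holds MARS, ARHGAP9 and GLI1. Of these MARS, a tRNA synthetase gene, was at 83.9 and 84.7 FPKM, so reads of DDIT3 may be shared with a more abundant gene and its values are uncertain.

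ATF3 (chr1:212738676-212794119), a stress-induced repressor that follows ATF4 and other signals, was the least abundant of the 10. It stood at 2.15 FPKM in shLuciferase against 2.03 FPKM in shETS1, a log2 ratio of -0.08 with a p-value of 0.789 in the authors' deposited table. Of expressed genes, 76.0% had a larger change, so the levels of ATF3 in the groups were among the closer pairs.

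XBP1 (chr22:29190548-29196560), the factor made active by IRE1 splicing, was at 28.8 FPKM in shLuciferase against 39.3 FPKM in shETS1, 1.36-fold higher. The authors' deposited table gives a p-value of 0.0556 and a q-value of 0.756. These values count spliced and unspliced mRNA together. A change larger than that of XBP1 was seen in 12.2% of expressed genes.

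**Figure D2:**
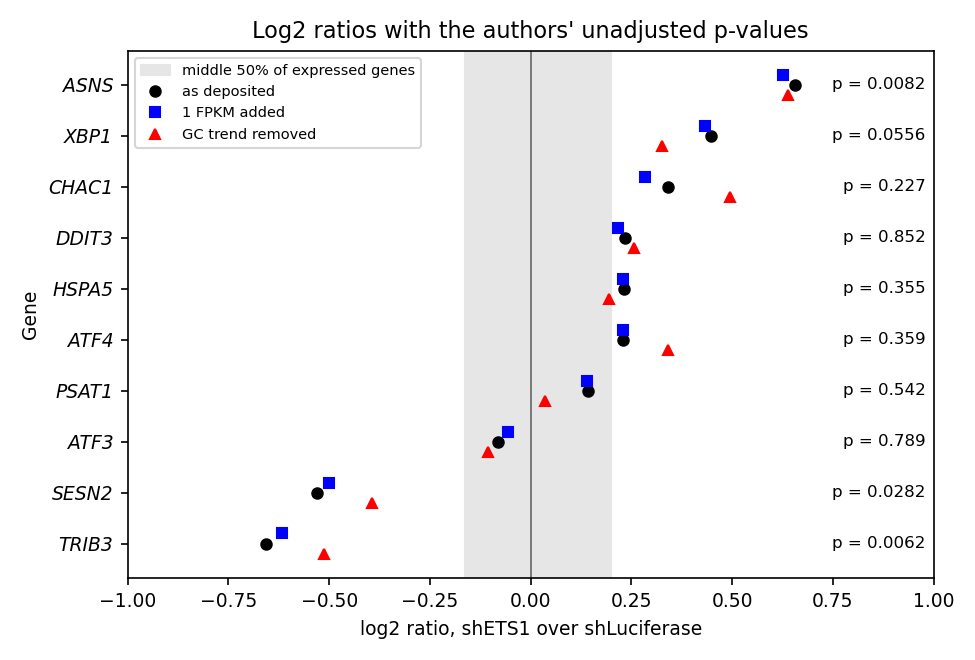
Log2 ratio of shETS1 over shLuciferase (horizontal axis) for each gene: as deposited (black circles), with 1 FPKM added to both levels (blue squares) and with a trend on transcript GC content removed (red triangles). The grey band is the middle 50% of expressed genes, from -0.16 to 0.20, and the authors' unadjusted p-value stands at the right. ASNS lies highest at 0.66 and TRIB3 lowest at -0.66, and all 10 keep their sign in the 3 series drawn.

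The metabolic targets of ATF4 differed from one another in size. ASNS (chr7:97481429-97501854) encodes asparagine synthetase and is the textbook target of the amino acid arm, through the element shown above. It was at 16.1 FPKM in shLuciferase against 25.4 FPKM in shETS1, 1.58-fold higher, a log2 ratio of 0.66. The authors' deposited table gives ASNS a p-value of 0.0082 and a q-value of 0.299. It had the largest ratio among the genes of the 10 that were higher in shETS1, and 4.22% of expressed genes had a larger change.

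PSAT1 (chr9:80912059-80945009), the aminotransferase of serine synthesis, was at 59.4 FPKM in the control against 65.5 FPKM in shETS1. Its log2 ratio was 0.14, with a p-value of 0.542 in the authors' deposited table. After the trend on GC content was removed the ratio of PSAT1 was 0.04.

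CHAC1 (chr15:41245636-41248717) encodes an enzyme that degrades glutathione and is induced by ATF4. It was at 4.54 FPKM in shLuciferase against 5.75 FPKM in shETS1, 1.27-fold higher, with a p-value of 0.227 in the authors' deposited table. The change was of a size that 22.2% of expressed genes exceeded.

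Of the remaining ATF4 targets among the 10, TRIB3 and SESN2 had lower values in shETS1, and neither was called. TRIB3 (chr20:361308-378203) encodes a pseudokinase that is induced by ATF4 and CHOP and feeds back on them. It was at 19.5 FPKM in shLuciferase against 12.4 FPKM in shETS1, a level 63.4% of the control and 1.58-fold lower. The log2 ratio of TRIB3 was -0.66, with a p-value of 0.0062 and a q-value of 0.254 by the authors' deposited table. This is the smallest p-value among the 10 genes, and 4.22% of expressed genes had a larger change.

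SESN2 (chr1:28585963-28609002), a leucine sensor that restrains mTORC1 and is induced by ATF4 and by p53, was at 20.8 FPKM in the control against 14.4 FPKM in shETS1. This is 69.2% of the control level and a log2 ratio of -0.53. The authors' deposited table gives SESN2 a p-value of 0.0282 and a q-value of 0.576. ASNS and TRIB3, both ATF4 targets at like levels in the control, thus had log2 ratios of the same size and opposite sign. The level of ASNS was 0.827 times that of TRIB3 in shLuciferase and 2.06 times in shETS1.

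HSPA5 (chr9:127997127-128003666) encodes BiP, the main chaperone of the ER lumen, which holds the 3 sensors inactive and is the standard reporter of ER stress. It was at 165.9 FPKM in shLuciferase against 194.7 FPKM in shETS1, above 94.9% and 95.9% of tested genes. The log2 ratio of HSPA5 was 0.23, with a p-value of 0.355 and a q-value of 1.00 by the authors' deposited table.

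Transcript base composition varied with the ratios across the whole table, and the 10 genes span much of its range. Spearman's rho of GC content and log2 ratio was -0.46 over the 9735 expressed genes for which GC could be read, given as a description, since genes share the same libraries. TRIB3 and SESN2 have GC-rich transcripts (60.9% and 59.5%), as do CHAC1 (62.6%) and ATF4 (56.7%), whereas XBP1 (41.5%) and PSAT1 (42.3%) are GC-poor. After a trend on GC content was removed, TRIB3 had a log2 ratio of -0.51, SESN2 -0.39, XBP1 0.32 and ASNS 0.64. CHAC1 and ATF4, which are GC-rich but higher in shETS1, went to 0.49 and 0.34. All 10 genes kept their sign.

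**Figure D3:**
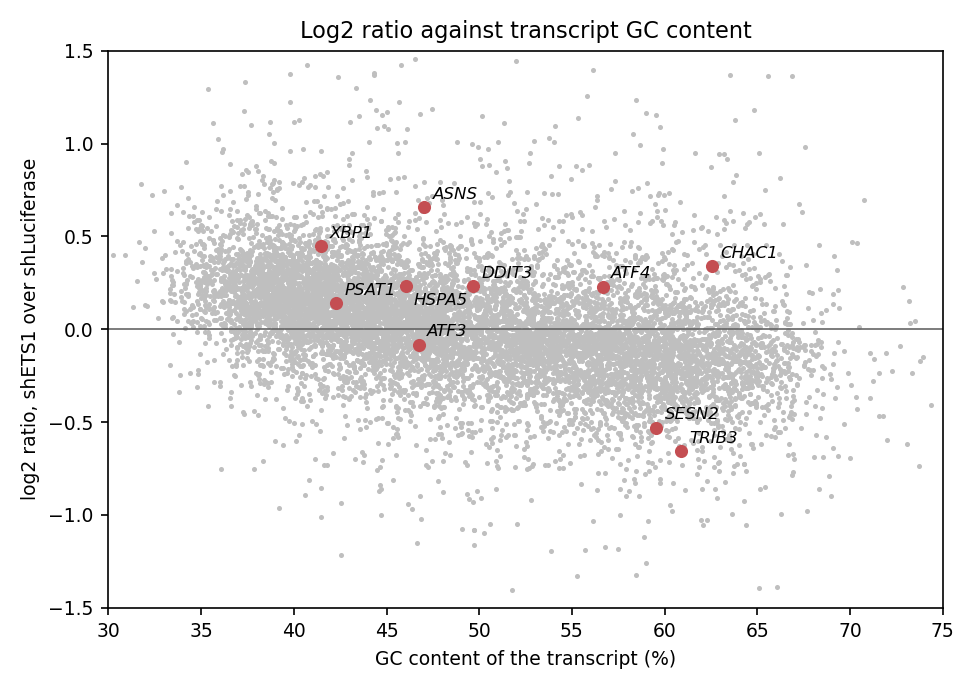
Log2 ratio of shETS1 over shLuciferase (vertical axis) against GC content of the transcript in percent (horizontal axis) for 9718 expressed genes (grey points; 17 lie outside the axes), with the 10 genes in red. The grey cloud slopes down from left to right, and TRIB3 and SESN2 lie low in the GC-rich range while CHAC1 lies high there.

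The rest of the pathway was read from 12 lists, of which 2, cytosolic heat shock and the tRNA synthetases not known as ATF4 targets, are set beside it for comparison. Without these, the lists held 120 tested genes other than the 10. The 120 include 8 that were listed as close relatives of the 10 and not by a role in the pathway. Of the 120, the cystine transporter gene SLC7A11 alone was called, higher in shETS1. Of all tested genes, 0.812% were called in either direction. At an unadjusted p under 0.05 there were 11 higher and 3 lower, 11.7% in all against the 6.94% of all tested genes. Of the 116 with a mean of at least 1 FPKM, 62.9% were above 0, with a median log2 ratio of 0.08. After the GC trend was removed, 61.4% of the 114 with a GC value were above 0, with a median of 0.05.

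The sensors and the eIF2alpha module had no called gene. EIF2AK3, which encodes PERK, was at 0.706 and 0.711 FPKM and ATF6 at 7.79 and 8.16 FPKM in shLuciferase and shETS1. ERN1, which encodes IRE1, was too low to be tested, at 0.239 and 0.181 FPKM. The eIF2alpha list held 13 tested genes: eIF2alpha kinases, phosphatase subunits, eIF2, its exchange factor eIF2B, and NCK1. None had a p-value under 0.05. In those with a mean of at least 1 FPKM, log2 ratios lay between -0.23 (EIF2B5) and 0.22 (EIF2S1, which encodes eIF2alpha itself). PPP1R15A encodes GADD34, the stress-induced subunit that restores eIF2alpha and is itself a target of ATF4 and CHOP. It was the most abundant gene of the list at 69.3 and 62.8 FPKM.

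Among 8 tested genes of the IRE1 and ATF6 arms, 2 had a p-value under 0.05, both higher in shETS1. MBTPS2, the site-2 protease that cuts ATF6, was at 0.837 FPKM in the control against 1.70 FPKM in shETS1. It had a q-value of 0.0982 by the authors' deposited table. The log2 ratio of MBTPS2 went from 1.02 to 0.56 with 1 FPKM added to both levels and to 0.78 with the GC trend removed. Its locus overlaps that of YY2, so its reads are uncertain. CREB3L1, an ER-bound relative of ATF6, was the other, at 0.382 and 0.652 FPKM. The most abundant genes of the list, the IRE1 adaptor TRAF2 and ATF6B, stood at 53.8 and 48.5 FPKM and at 31.6 and 26.9 FPKM. ATF6B had the lowest log2 ratio of the list, -0.23. The deposited locus of ATF6B lies on an alternate haplotype sequence, so its values are uncertain.

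None of 9 tested bZIP factors that pair with ATF4 or share its sites was called, and 2 had a p-value under 0.05 in opposite directions. CEBPD was at 10.4 FPKM in the control against 6.42 FPKM in shETS1 (log2 ratio -0.69) and JDP2 at 5.51 and 7.97 FPKM (0.53). CEBPB, a main partner of ATF4 and CHOP, was at 37.99 and 50.4 FPKM, and JUN, the most abundant, at 152 and 127 FPKM.

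SLC7A11 supplies cystine for glutathione synthesis and is a target of ATF4 and NRF2. It was the only called gene among 15 tested further targets of ATF4 and CHOP and among 9 tested amino acid transporters. It rose from 0.799 to 1.96 FPKM, with a q-value of 0.00964 by the authors' deposited table. With 1 FPKM added to both levels its log2 ratio was 0.72 instead of 1.29, and with the GC trend removed the ratio was 1.04. SLC7A11 is left out where a mean of at least 5 FPKM is asked. DDIT4, which encodes REDD1 and like SESN2 restrains mTORC1, was at 7.61 FPKM in the control against 11.0 FPKM in shETS1, a log2 ratio of 0.53 whose sign is opposite to those of SESN2 and TRIB3. Its p-value was 0.0423 and its q-value 0.678 per the authors' deposited table. Of the other targets, the cystathionine lyase gene CTH had the lowest ratio, at 1.69 and 1.04 FPKM. CEBPG stood at 38.6 and 40.2 FPKM and ATF5 at 31.9 and 32.3 FPKM, the latter in a locus shared with other genes. The median log2 ratio of the 15 was 0.09, with 11 of them above 0.

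No gene of amino acid synthesis and one-carbon metabolism was called. Of the 14 tested, 7 had a log2 ratio above 0, with a median of 0.01. After the GC trend was removed, 10 of 14 were above 0 and the median was 0.09. PHGDH, which opens serine synthesis ahead of PSAT1, was at 152 and 168 FPKM and SHMT2 at 226 and 225 FPKM. The largest ratio was that of BCAT1, a branched-chain aminotransferase, at 12.8 FPKM in the control against 19.95 FPKM in shETS1, with a p-value of 0.007 and a q-value of 0.274 by the authors' deposited table. The most abundant transporters of the list, SLC1A5 (175 and 131 FPKM), SLC7A5 (170 and 151 FPKM) and its partner SLC3A2 (156 and 161 FPKM), had p-values over 0.05.

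The 14 tested tRNA synthetase and export genes known as ATF4 targets had a median log2 ratio of 0.02, and none had a p-value under 0.05. VARS had the lowest log2 ratio, at 207 and 178 FPKM, and WARS the highest, at 62.8 and 78.6 FPKM, while SARS was at 148 and 168 FPKM. The deposited locus of VARS, like that of ATF6B, lies on an alternate haplotype sequence. In the comparison list of 7 other cytosolic synthetases, HARS, for histidine, rose from 38.8 to 86.5 FPKM (log2 ratio 1.16), with a q-value of 0.00964 by the authors' deposited table. The others there were not called. QARS was at 153 and 171 FPKM, KARS at 146 and 135 FPKM and FARSA, which had the lowest log2 ratio, at 103 and 81.1 FPKM.

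ER chaperones and folding enzymes, the class of HSPA5, had a median log2 ratio of 0.22, with 13 of 17 tested genes above 0 and none called. HSP90B1, the ER form of HSP90 with an ER stress element like that of HSPA5, was at 210 FPKM in the control against 264 FPKM in shETS1. MANF, a secreted stress factor, had the highest ratio of the list, at 80.6 and 117 FPKM, with a p-value of 0.0258 and a q-value of 0.553 by the authors' deposited table. P4HB, a disulfide isomerase, had the lowest, at 349 and 241 FPKM, with a p-value of 0.0416 and a q-value of 0.678 there, and CALR, the most abundant, stood at 628 and 603 FPKM. After the GC trend was removed the median was 0.18, with 15 of 17 above 0. In other lists the same step lowered the number above 0. It went from 7 to 4 of 12 in the eIF2alpha module and from 3 to 2 of 7 in the IRE1 and ATF6 arms. For the bZIP partners it went from 6 to 5 of 8, and for the relatives of the 10 from 3 to 2 of 7. Among genes with a GC value, 9 of 14 other ATF4 and CHOP targets and 12 of 16 degradation and secretion genes were above 0 after this step.

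Genes of ER-associated degradation and secretion that XBP1 controls had a median log2 ratio of 0.15, and 13 of 17 tested genes were above 0, none of them called. DNAJB9, a co-chaperone that represses IRE1, was at 0.916 FPKM in shLuciferase against 1.59 FPKM in shETS1, and SEL1L, the scaffold of the degradation complex, at 2.805 and 3.999 FPKM. Both had a p-value under 0.05 in the authors' deposited table, at 0.0142 and 0.0345, and q-values of 0.417 and 0.632. The most abundant genes, SEC61B (221 and 247 FPKM) and SEC61A1 (176 and 181 FPKM), form the translocation channel. Among genes of the list with a mean of at least 1 FPKM, DERL2 had the lowest log2 ratio, at 25.8 and 24.3 FPKM.

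**Figure D4:**
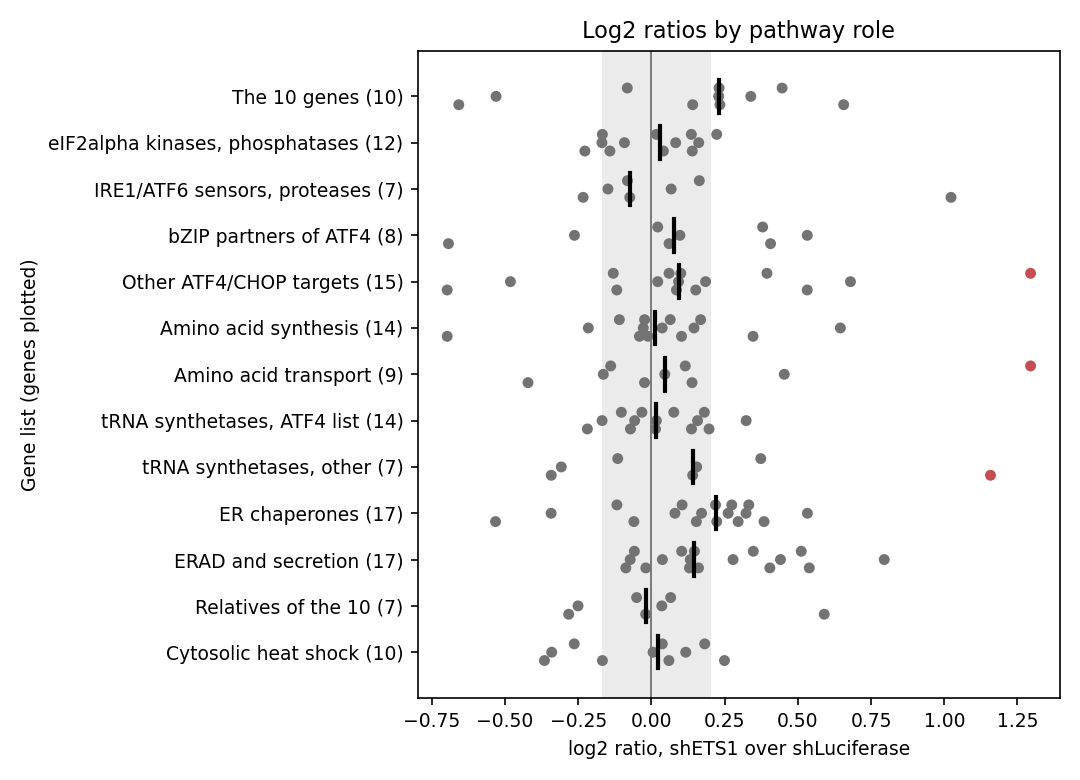
Log2 ratio of shETS1 over shLuciferase (horizontal axis) of each tested gene with a mean of at least 1 FPKM, by list (rows, with the number of genes plotted); the vertical offset within a row only separates points. The black bar is the median of the list, the grey band the middle 50% of expressed genes, and red points are genes called at a q-value of at most 0.05. The bars of the 10 genes and of the ER chaperones stand at 0.23 and 0.22, and the red points are SLC7A11, which is drawn in 2 rows, and HARS.

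Close relatives of the 10 genes and the cytosolic heat shock genes had no called member. HSPA8 and HSPA9, the cytosolic and mitochondrial relatives of HSPA5, were at 1739 and 1821 FPKM and at 126 and 129 FPKM. HSPA13 had the highest ratio of the relatives at 4.44 and 6.69 FPKM, with a p-value of 0.0236 and a q-value of 0.529 by the authors' deposited table, and CREB1 the lowest at 3.39 and 2.78 FPKM. The median log2 ratio of 10 tested heat shock genes was 0.02, with none at a p-value under 0.05. HSP90AA1 was at 1085 and 1290 FPKM and HSP90AB1 at 1475 and 1481 FPKM, while HSPA1B, which has near-identical copies, was at 10.6 and 8.23 FPKM.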

How the data were processed

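Reads were processed on hg19 with Cufflinks 2.1.1, SAMtools 0.1.18, Bowtie2 2.0.6 and TopHat2 2.0.7, per the submitters' processing notes, which state no roles. For annotation and library scaling, settings were not given in the sources used here. The authors deposited FPKM values, 1 per gene and group, with p-values, q-values, the log2 fold change of shETS1 over shLuciferase and an unused score, per the file headers. No protocol step marks strand, so overlapping genes may share reads. Besides the genes flagged above, SEC61A1, SHMT2, KARS and CREB1 lie in loci shared with other genes. With no value per sample, the authors' p-values and q-values were read as they are, across all tested genes, and called means a q-value of at most 0.05. The p-values come from the authors' test on these samples, whose settings were not given. They are not a measure of sample spread alone, and that spread may be technical. The count and per-sample tests planned did not apply. Starts were shifted by 1 so that loci count from 1.

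The members and lists were chosen with earlier results of these data known. Named genes are the 10, ETS1, the markers and, per list, called genes, the 2 most abundant, and the highest and lowest ratios at a mean of at least 1 FPKM. EIF2AK3, ATF6, ERN1, CREB3L1, DDIT4, SEL1L, HSP90B1 and the motif genes were named after their values were seen. Transcript GC content came from GENCODE 29 (GRCh38) by symbol, found for 91.2% of expressed genes, and its trend was a cubic fit. Python 3.11.15, pandas 2.3.3 and NumPy 2.4.6 were used, and the adjustment and the trend fit were tested on simulated data.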

Additional observations from a re-analysis of the deposited data

How the results depend on the processing

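No alternative changed the sign of any of the 10 genes (offsets of 0.1 or 1 FPKM, median or upper quartile scaling, GC trend), and none of the 10 was called when p-values were adjusted again over genes with a mean of at least 1 or 5 FPKM. With an unadjusted p under 0.05 in place of the q-value, which 6.94% of all tested genes met, the count was 3 of the 10 genes. It was 2 of 8 tested genes in the IRE1 and ATF6 arms, 2 of 9 bZIP partners and 2 of 14 in amino acid synthesis. Of the ER chaperones it was 2 of 17, of the degradation genes 2 of 17, of other ATF4 and CHOP targets 4 of 15, and of the relatives 1 of 8. At a q-value of at most 0.1 the IRE1 and ATF6 arms had 1. With p-values adjusted over genes with a mean of at least 5 FPKM, the other ATF4 and CHOP targets and the amino acid transporters had 0, because SLC7A11 is below that level. The median log2 ratio of the transporters was -0.081 at a mean of at least 5 FPKM (0.05 as reported), and that of the other tRNA synthetases was 0.018 with the GC trend removed (0.14 as reported). The other 89 alternative medians moved by at most 0.1, a margin larger than several of the medians themselves, so some changed sign within it. With the GC trend removed, the eIF2alpha module went from 0.029 to -0.025 and the heat shock genes from 0.022 to -0.046. At a mean of at least 5 FPKM the relatives of the 10 went from -0.019 to 0.036. Scaling shifted all ratios by less than 0.1, the median of expressed genes being 0.02. No paired analysis was possible because the table gives no value per sample, and for the same reason leaving out a replicate and a second count test were not run. Depth is unknown, so precision is known only from the authors' test: among genes at 5 to 20 FPKM with a p-value between 0.04 and 0.06, the median change was 1.42-fold.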

Other observations

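The ER stress element was found in the windows of 25 genes, of which 15 were tested by the authors. Besides HSPA5 and XBP1 these include CALR, CANX, CRELD2, HSP90B1 and PDIA6 of the chaperone list, and FICD, the enzyme that modifies BiP, at 2.75 FPKM in the control against 3.41 FPKM in shETS1. Of the 14 with a mean of at least 1 FPKM, 10 had a log2 ratio above 0, with a median of 0.17, beside 52.5% and 0.02 for all genes that have a window. The only called gene among the 15 was SYNPO, an actin-binding protein gene, which fell from 16.4 to 6.56 FPKM in the authors' deposited table.

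Of the genes with the ETS letters CCGGAAGT in a window, 891 had been tested and none was called in the authors' deposited table, while 38 had an unadjusted p under 0.05. Of all 8633 tested genes that matched a window by symbol, 59 were called and 566 had an unadjusted p under 0.05. The median log2 ratio was 0.04 for genes with the letters. No test was made of this difference, and the window covers only the proximal promoter.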
